A study of Mus musculus with 4 samples.

Results

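A list of 40 mouse genes of the kinetochore, centromere and spindle checkpoint was followed here, each chosen by its gene name. All 40 were found, with 65 probes among 41174 probes on the array, and all 40 were among the 17444 genes and unnamed features tested. Ska1 is called 2810433K01Rik in the files, Sgol1 and Sgol2 are older names of Sgo1 and Sgo2a, and Cenpn was found by its accession.

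Kinetochores are protein assemblies built on centromeric chromatin that hold chromosomes to spindle microtubules during mitosis. Their inner layer contains the histone variant CENP-A and the proteins bound to it, and their outer layer holds the Ndc80 complex, which grips microtubules. The spindle checkpoint delays sister separation while kinetochores lack microtubules. Cells that leave the cell cycle, as myoblasts do when they fuse into myotubes, generally express little of these genes. GDF8 (myostatin) is a TGF-beta family ligand that restrains muscle growth.

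The samples were C2C12 cells, an established mouse myoblast line, after 6 days of differentiation in horse serum. Treated cells received 20 nM GDF8 (recombinant mouse myostatin) daily through those 6 days, and control cells were left untreated. The labels give different horse serum concentrations in different fields. RNA of both groups was compared on 4 two-colour arrays, each with 1 GDF8 and 1 untreated sample. The labels call the 4 arrays biological replicates but do not say how the cultures were kept apart, so p-values may measure only technical spread. The dyes were swapped between arrays: GDF8 RNA carried Cy5 for replicates 2 and 3 but Cy3 for replicates 1 and 4. A ratio is given on the log2 scale as GDF8 over untreated, 4 values are in the order of replicates 1 to 4, and ± is the standard error of the fit over 4 arrays unless an SD is named. Folds are of GDF8 over untreated where the ratio is above 0. A gene passed the test when limma's p-value, adjusted by Benjamini-Hochberg over all 17444 features, was under 0.05. In RNA from a whole culture, more cells that express a gene and more of its RNA per cell cannot be told apart.

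The arrays did not vary independently of each other. Over all 17444 features, the ratios of arrays with the same dye orientation had the highest Pearson correlations, 0.47 for replicates 1 and 4 and 0.47 for replicates 2 and 3. The correlation was 0.16 for replicates 1 and 2 and 0.10 for replicates 3 and 4, and it was -0.19 and -0.14 for the remaining pairs. Within the dye orientations, the ratio of replicate 1 minus that of replicate 4 had a Pearson correlation of 0.52 with the ratio of replicate 2 minus that of replicate 3, and over the 40 genes it was 0.56. Beyond the dye, deviations on replicates 1 and 2 thus went together, as did those on replicates 3 and 4. Features of 1 array share its labelling and scan and are not replicates. Whether these pairs of arrays share RNA was not tested. Counts with replicates 1 and 2 averaged and replicates 3 and 4 averaged are given for the 40 genes, their role groups and the further lists.

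After differentiation in GDF8, 16 of the 40 genes were higher and 0 were lower, while 24 did not pass the test. The rises ran from 1.41-fold to 1.97-fold. Among all features, 150 (0.860%) were higher and 402 (2.30%) were lower. At an unadjusted p under 0.05, 27 of the 40 genes were higher and 0 lower, against 5.30% higher and 7.17% lower of all features, and no other fit or test tried called a gene of the list lower. The median log2 ratio of the 40 genes was 0.50, against 0.01 for all features, and 1.30% of all features lay above 0.50. The ratio was above 0 on all 4 arrays for 27 of the 40 genes and for 6.82% of all features. In 21 of the 40 genes every GDF8 level was above every untreated level, as in 1.99% of all features. Of the 40 genes, 9 passed the test and exceeded 1.6-fold, as did 61 (0.350%) of all features. Among those called higher, these are 9 of 16 genes and 61 of 150 features. Of the 16 higher genes, 0 exceeded 2-fold.

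The counts past the adjusted threshold depended on single arrays. The number of higher genes was 10 without replicate 1 (Bub1, Cenpk, Cenpm, Cenpp, Kntc1 and Ndc80 no longer passed), 3 without replicate 2 (Ska1, Cenpa and Sgol1), 13 without replicate 3 and 2 without replicate 4 (Ska1 and Cenpa). Without replicate 3, Cdca8, Cenpf, Cenpk, Cenpm, Cenpp and Espl1 no longer passed, while Cenph, Cenpi and Ttk did. Of all features, 0.545%, 0.0688%, 0.613% and 0.0459% were higher without replicates 1, 2, 3 and 4 in turn. With replicates 1 and 2 averaged and replicates 3 and 4 averaged, 5 genes passed, namely Ska1, Cenpa, Sgol1, Spc25 and Bub1b, against 0.132% of all features. These are 1 of the 4 higher genes of the inner kinetochore, 2 of the 5 of the outer kinetochore, 1 of the 2 of the spindle checkpoint and 1 of the 3 of sister separation, and Kntc1 and Cdca8 did not pass there. At an unadjusted p under 0.05 in limma, 22 of the 40 genes were higher without replicate 2 and 27 without replicate 4. The shares of all features there were 3.10% and 4.53%. It was 25 with arrays averaged, against 3.28% of all features, and 25 and 24 without replicates 1 and 3. Leaving out an array takes 1 of 2 residual degrees of freedom. The median ratio of the 40 genes stayed between 0.42 and 0.61 when an array was left out.

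**Figure D1:**
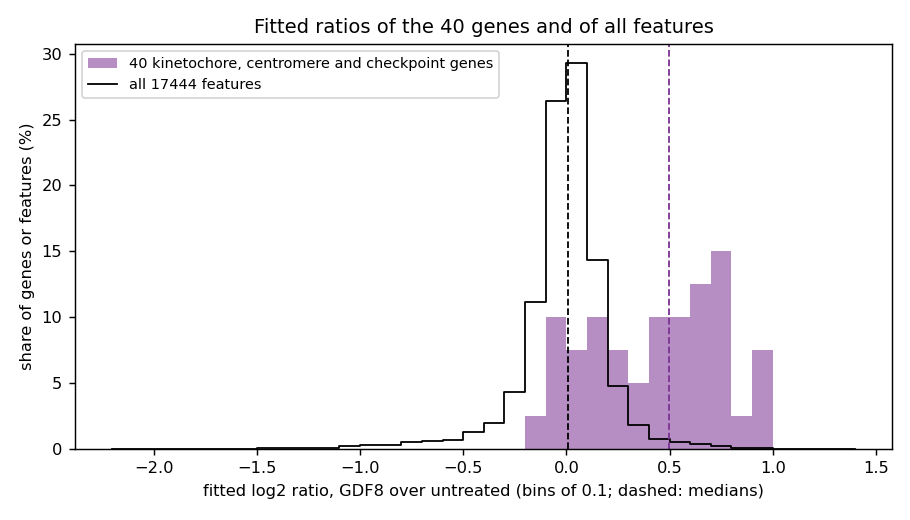
Share of genes or features (%, vertical axis) by fitted log2 ratio of GDF8 over untreated (horizontal axis, bins of 0.1), with the 40 genes as filled bars and all 17444 features as a line; dashed lines mark the medians. The 40 genes centre on 0.50 and reach 0.98, while all features centre on 0.01.

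The promoters of these genes were searched for letters known from cell cycle promoters. The cell cycle genes homology region (CHR) is bound by the DREAM and MuvB complexes, the CCAAT box by NF-Y, and E2F sites by E2F factors. Windows from 250 bases before to 50 bases after the annotated start came from RefSeq (GRCm38.p6) and covered 36 of the 40 genes with 41 windows, with Ska1, Incenp, Spc24 and Zwilch not included. Cenpa, Spc25, Bub1b and Cenpf are printed as the higher genes of smallest p whose windows hold both a CHR and a CCAAT match, and Cenpj as an example of a gene that did not pass and has no match. Other genes went the other way. Nuf2 and Cenpp were higher and have no match, while Bub3, Cenpl, Cenpn, Oip5 and Ttk did not pass and hold both. The windows are chr5:30666636-30666935 (plus strand) for Cenpa, chr2:69206164-69206463 (minus) for Spc25, chr2:118597961-118598260 (plus) for Bub1b, chr1:189688037-189688336 (minus) for Cenpf and chr14:56571797-56572096 (minus) for Cenpj. Each reads 5′ to 3′ on the gene's strand, and capitals mark TTTGAA and CCAAT or their reverse complements.
Cenpa: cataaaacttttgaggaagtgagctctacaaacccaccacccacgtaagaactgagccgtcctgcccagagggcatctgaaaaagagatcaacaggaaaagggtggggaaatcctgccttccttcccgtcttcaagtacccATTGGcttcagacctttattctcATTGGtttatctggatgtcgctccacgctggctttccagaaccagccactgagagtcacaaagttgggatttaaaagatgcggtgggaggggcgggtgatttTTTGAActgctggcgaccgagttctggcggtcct
Spc25: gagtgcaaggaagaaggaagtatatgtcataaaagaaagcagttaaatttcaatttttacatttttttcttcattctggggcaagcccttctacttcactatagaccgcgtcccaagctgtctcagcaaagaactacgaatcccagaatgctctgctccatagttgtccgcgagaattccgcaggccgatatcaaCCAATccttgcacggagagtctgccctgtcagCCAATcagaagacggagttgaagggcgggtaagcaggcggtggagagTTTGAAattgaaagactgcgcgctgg
Bub1b: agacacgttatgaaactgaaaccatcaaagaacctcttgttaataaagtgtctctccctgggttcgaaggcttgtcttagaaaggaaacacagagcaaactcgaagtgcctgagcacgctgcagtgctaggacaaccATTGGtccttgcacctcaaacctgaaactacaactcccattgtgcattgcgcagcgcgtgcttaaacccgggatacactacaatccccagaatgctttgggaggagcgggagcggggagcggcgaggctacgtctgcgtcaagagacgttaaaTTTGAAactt
Cenpf: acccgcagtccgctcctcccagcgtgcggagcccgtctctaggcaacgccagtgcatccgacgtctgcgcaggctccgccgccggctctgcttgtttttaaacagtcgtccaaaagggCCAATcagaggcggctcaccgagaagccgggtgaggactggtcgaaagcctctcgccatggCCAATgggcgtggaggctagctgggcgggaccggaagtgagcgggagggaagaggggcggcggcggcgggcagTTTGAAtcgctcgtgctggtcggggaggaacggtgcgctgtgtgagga
Cenpj: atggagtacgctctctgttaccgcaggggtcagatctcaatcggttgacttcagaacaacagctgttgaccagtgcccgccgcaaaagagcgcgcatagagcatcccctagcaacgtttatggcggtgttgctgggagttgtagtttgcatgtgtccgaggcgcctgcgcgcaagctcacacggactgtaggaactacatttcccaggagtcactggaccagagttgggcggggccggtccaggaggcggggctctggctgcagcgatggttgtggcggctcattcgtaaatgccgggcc

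The CHR letters TTTGAA, on either strand, were in 15 of 41 windows (36.6%), against 12.4% of the windows of all tested genes and 17.9% of all windows. Among the higher genes 8 of 18 windows (44.4%) held them, and among those that did not pass 7 of 23 (30.4%). Within 50 bases of the start, the shares were 8 of 18 windows of higher genes, 4 of 23 (17.4%) of those that did not pass and 3.21% of the windows of tested genes. The first base of the match lay 16 bases after the start in Cenpa, 24 in Spc25, 40 in Bub1b and 2 in Cenpf. CCAAT, on either strand, was in 28 of 41 windows (68.3%), against 37.5% of those of tested genes. It was in 15 of 18 windows (83.3%) of higher genes and in 13 of 23 (56.5%) of those that did not pass. Cenpk and Sgol2, both higher, count with more than 1 window each, all with CCAAT.

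CHR and CCAAT occurred together in 13 of 41 windows (31.7%), against 4.90% of the windows of tested genes. They did so in 7 of 18 windows (38.9%) of higher genes and in 6 of 23 (26.1%) of those that did not pass. The E2F-type letters TTTNNCGC were in 9 of 41 windows (22.0%), against 7.77% of those of tested genes. Their share was alike in higher genes, 4 of 18 windows (22.2%), and in those that did not pass, 5 of 23 (21.7%). Matches of different motifs may share letters, and both windows of Bub3 overlap and hold the same matches. A match describes letters and not a bound site. The same letters were in windows of genes outside the list: of the other genes higher with GDF8, 32 of 111 windows (28.8%) held a CHR within 50 bases of the start, and of the genes lower with GDF8, 13 of 380 (3.42%).

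**Figure D2:**
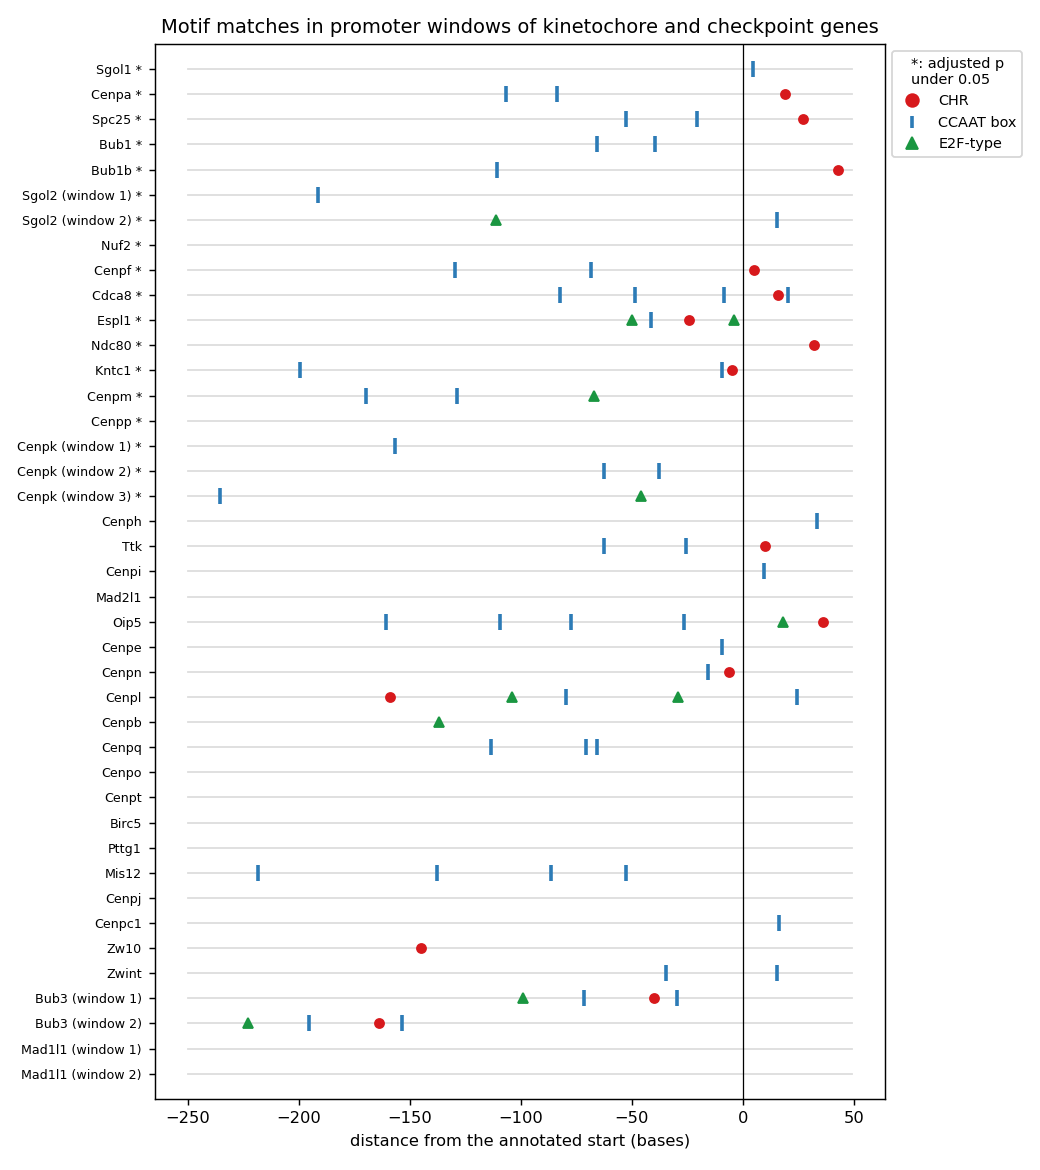
Position of CHR, CCAAT box and E2F-type matches (distance of the match's centre from the annotated start in bases, horizontal axis) in 41 promoter windows of 36 of the 40 genes, with the higher genes (asterisk) above those that did not pass. The CHR matches of the higher genes all lie within 50 bases of the start. The windows end 50 bases after the start, so only matches before it could lie further away.

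Of the centromeric chromatin and inner kinetochore genes, 4 of 14 were higher and their median ratio was 0.43. Cenpa, whose promoter window is printed, encodes the histone H3 variant that marks centromeres. Its level was 12.98, 13.03, 12.76 and 12.59 in GDF8 cells, against 11.92, 12.08, 12.04 and 11.59 in untreated cells (log2 intensity). Every GDF8 level was above every untreated level. The ratios were 1.06, 0.95, 0.72 and 1.00, and the fit gave 0.93 ± 0.09 (SE), 1.91-fold (adjusted p = 0.00991).

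Cenpm, Cenpp and Cenpk encode subunits of the constitutive centromere-associated network, which binds CENP-A chromatin. For Cenpm the ratios were 0.61, 0.65, 0.52 and 0.52, the narrowest spread of the higher inner kinetochore genes, and the fit gave 0.58 ± 0.09 (SE), 1.49-fold (adjusted p = 0.0238). Cenpk had ratios of 0.49, 0.67, 0.47 and 0.37 and a fitted ratio of 0.50 ± 0.09 (SE), 1.41-fold (adjusted p = 0.0425). Other probes of Cenpk gave 0.49 and 0.46 and did not pass with each probe tested on its own (limma adjusted p = 0.0605 and 0.248). By the brightest probes of Cenpm and Cenpk the GDF8 and untreated levels did not overlap. Cenpp had ratios of 0.94, 0.47, 0.19 and 0.60, with a fitted ratio of 0.55 ± 0.10 (SE), 1.46-fold (adjusted p = 0.047). Its levels did overlap: on replicate 1, Cenpp was at 11.66 in GDF8 cells, below the untreated levels of the other arrays but above the 10.72 of untreated cells on the same array.

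Several other subunits of the network did not pass the test. Cenph had ratios of 1.35, 0.73, 0.04 and 0.83, high on replicate 1 and near 0 on replicate 3, and a fitted ratio of 0.74 ± 0.15 (adjusted p = 0.0546). Cenpi went the same way, with 1.06, 0.58, 0.01 and 0.72 and a fit of 0.59 ± 0.13 (adjusted p = 0.0696). Without replicate 3, both passed, Cenph at 0.91 (adjusted p = 0.0307) and Cenpi at 0.73 (adjusted p = 0.0487). With each probe tested on its own, the brightest Cenph probe had a limma adjusted p of 0.0496. A second Cenph probe, at 0.47 ± 0.12, had 0.112 and did not pass. Oip5, a subunit of the Mis18 complex that licenses loading of CENP-A, had ratios of 0.67, 0.83, 0.27 and 0.14 and a fit of 0.48 ± 0.14 (adjusted p = 0.179).

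The rest of the inner kinetochore lay closer to 0. Cenpn, which reads CENP-A nucleosomes, had a fitted ratio of 0.38 ± 0.10, with a mean of 0.66 where GDF8 was in Cy5 and 0.09 where it was in Cy3. Cenpl, Cenpq and Cenpo were above 0 on all 4 arrays, at 0.28, 0.20 and 0.17, and in each of them the levels did not overlap, although none passed the test. Cenpt, which recruits the Ndc80 complex, was at 0.17 ± 0.09. Cenpc1, which links CENP-A chromatin to the outer kinetochore, was at -0.02 ± 0.16, with a 95% interval of -0.40 to 0.37. Cenpb, which binds a motif in centromeric satellite DNA, split by dye: its mean ratio was -0.18 with GDF8 in Cy5 and 0.61 with GDF8 in Cy3.

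In the outer kinetochore 5 of 9 genes were higher, and the median ratio was 0.62. Ska1, a subunit of the Ska complex that tracks microtubule ends, had the largest ratio of the 40 genes. Its level was 12.38, 12.51, 12.04 and 12.75 in GDF8 cells, against 11.13, 11.60, 11.51 and 11.54 in untreated cells (log2 intensity), without overlap. The ratios were 1.25, 0.91, 0.54 and 1.21, lowest on replicate 3, and the fit gave 0.98 ± 0.10 (SE), 1.97-fold (adjusted p = 0.0104).

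The Ndc80 complex has 4 subunits, all on the list, and 3 were higher. Spc25 was at 13.82, 13.74, 13.74 and 13.83 in GDF8 cells, against 12.93, 12.90, 13.10 and 12.86 in untreated cells (log2 intensity). The SD of these levels was 0.05 in GDF8 cells and 0.11 in untreated cells, and the groups did not overlap. With ratios of 0.88, 0.84, 0.63 and 0.97, the fit gave 0.83 ± 0.09 (SE), 1.78-fold (adjusted p = 0.0117). Nuf2 had ratios of 0.64, 0.78, 0.55 and 0.93 and a fit of 0.72 ± 0.10 (SE), 1.65-fold (adjusted p = 0.018). For Ndc80 itself, which contacts the microtubule, the ratios were 0.66, 0.73, 0.30 and 0.77 and the fit gave 0.62 ± 0.11 (SE), 1.53-fold (adjusted p = 0.0347). Spc24, the partner of Spc25, had ratios of 0.69, 0.68, 0.29 and 0.39 and a fit of 0.51 ± 0.11 (adjusted p = 0.071), and did not pass.

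Cenpf, a large coiled-coil protein of the outer kinetochore, had ratios of 0.30, 0.90, 0.92 and 0.74, lowest on replicate 1, and a fit of 0.72 ± 0.10 (SE), 1.64-fold (adjusted p = 0.0205). The kinesin gene Cenpe did not pass by its brightest probe, at 0.39 ± 0.10, which was saturated in 3 of 4 GDF8 and 1 of 4 untreated channels. Other probes of Cenpe gave 0.53 and 0.78, and with each probe tested on its own the probe at 0.78 had an adjusted p of 0.0158. By that rule 0.771% of all 26577 probes were higher. Mis12, a scaffold between the inner and outer kinetochore, was at 0.07 ± 0.09, with a 95% interval of -0.15 to 0.29. The brightest probe of Zwint, which helps dock the RZZ complex, was saturated in all 4 untreated channels and has no fold here; an unsaturated probe gave 0.14 ± 0.11.

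**Figure D3:**
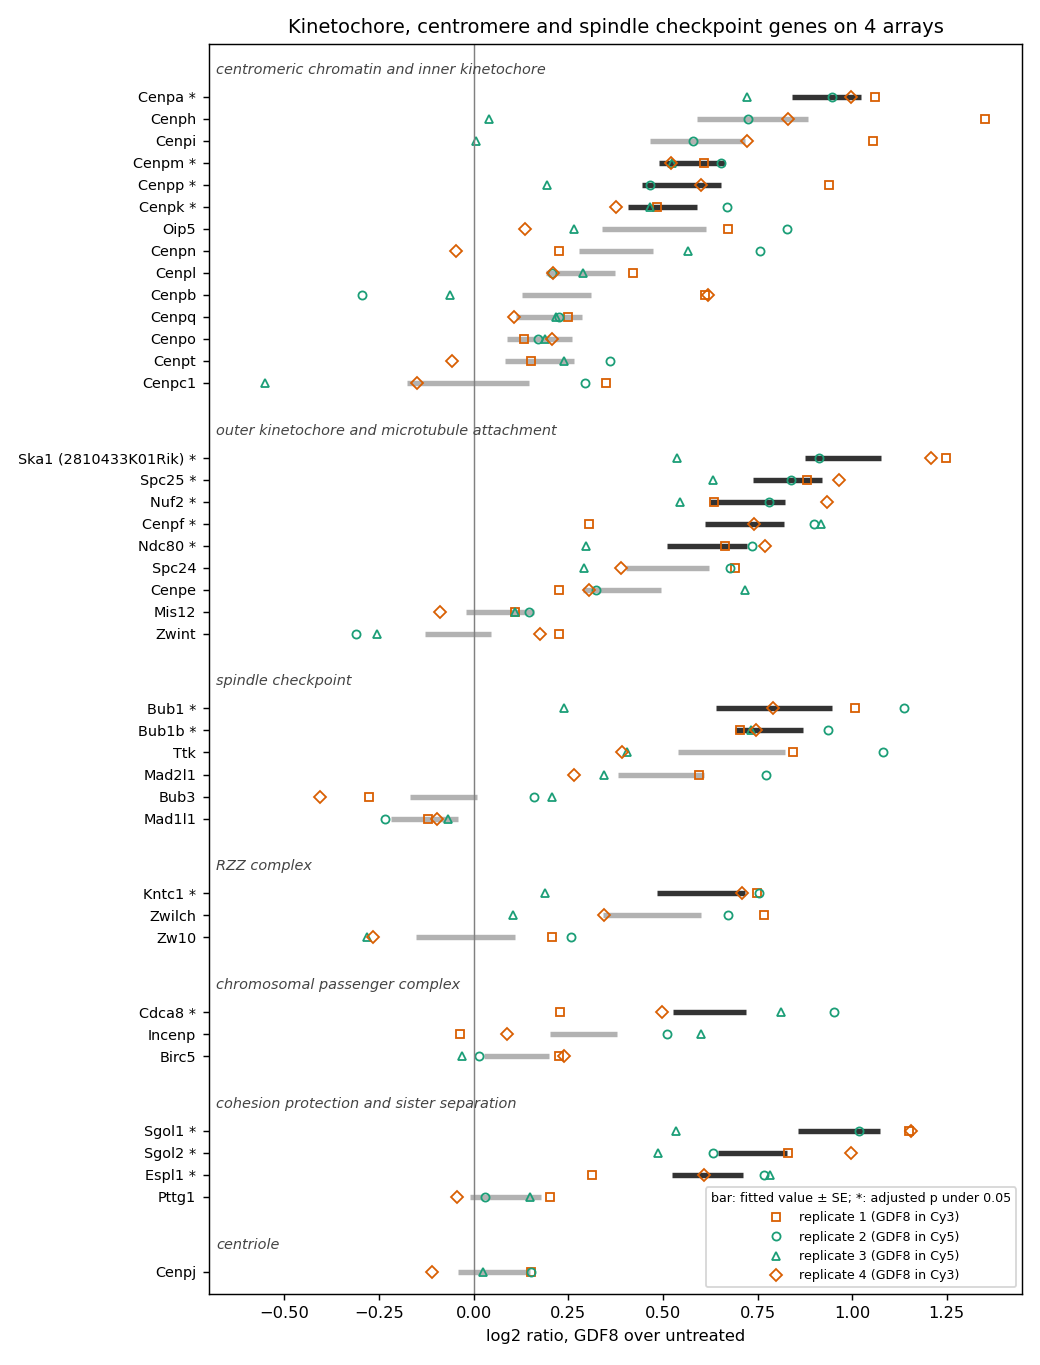
Log2 ratio of GDF8 over untreated (horizontal axis) of each of the 40 genes on the 4 arrays, grouped by role. Symbols are arrays, coloured by dye orientation, bars span the fitted value ± SE, and an asterisk marks an adjusted p under 0.05; replicate 3 (triangles) is the lowest array for 10 of the 16 higher genes.

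Of the 6 spindle checkpoint genes 2 were higher, and the median ratio was 0.59. Bub1b encodes BubR1, a part of the mitotic checkpoint complex. Its level was 11.65, 11.93, 11.92 and 12.02 in GDF8 cells, against 10.94, 11.00, 11.18 and 11.27 in untreated cells (log2 intensity), and the groups did not overlap. With ratios of 0.70, 0.94, 0.73 and 0.74, the fit gave 0.78 ± 0.09 (SE), 1.72-fold (adjusted p = 0.0133). Bub1, a kinase that recruits other checkpoint proteins, had ratios of 1.01, 1.14, 0.24 and 0.79, low on replicate 3. Its fit of 0.79 ± 0.15 (SE), 1.73-fold (adjusted p = 0.0499) lay just inside the threshold.

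Ttk encodes the Mps1 kinase, which starts checkpoint signalling. Its ratios were 0.84, 1.08, 0.40 and 0.39, with a fit of 0.68 ± 0.14 (adjusted p = 0.0645) that did not pass, although the levels did not overlap. Mad2l1, the checkpoint protein that binds Cdc20, had a fitted ratio of 0.49 ± 0.11 (adjusted p = 0.0892) by its brightest probe. A second Mad2l1 probe gave 0.58 ± 0.10 and passed when each probe was tested on its own (adjusted p = 0.0365). Bub3 and Mad1l1 lay at -0.08 ± 0.09 and -0.13 ± 0.09. Bub3 was saturated in 4 of 8 channels, and its unsaturated probes gave -0.02 and -0.03. Mad1l1 was below 0 on all 4 arrays, with a 95% interval of -0.34 to 0.08.

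The RZZ complex brings dynein and Mad1 to kinetochores. Of its 3 genes Kntc1, which encodes the Rod subunit, was higher. Its ratios were 0.75, 0.75, 0.19 and 0.71, and the fit gave 0.60 ± 0.12 (SE), 1.52-fold (adjusted p = 0.0499). Replicate 3 stood apart from the other arrays, and without it the ratio was 0.74. Zwilch had ratios of 0.77, 0.67, 0.10 and 0.34 and a fit of 0.47 ± 0.13 (adjusted p = 0.156). Zw10, which also acts in vesicle transport outside mitosis, had ratios of 0.21, 0.26, -0.28 and -0.27, above 0 on replicates 1 and 2 and below 0 on replicates 3 and 4.

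The chromosomal passenger complex corrects wrong attachments. Cdca8 (borealin) was the higher one of its 3 listed genes. Its ratios were 0.23, 0.95, 0.81 and 0.50, and the fit gave 0.62 ± 0.10 (SE), 1.54-fold (adjusted p = 0.0238), with 1 of 8 channels saturated. An unsaturated Cdca8 probe gave 0.76 ± 0.10. Incenp, the scaffold of the complex, and Birc5 (survivin) were saturated in 3 and 5 of 8 channels and had fitted ratios of 0.29 ± 0.09 and 0.11 ± 0.09. Their kinase Aurkb, not on the list, had ratios of 0.88, 0.94, 0.51 and 0.86 and a fit of 0.80 ± 0.10 (SE), 1.74-fold (adjusted p = 0.0159).

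Of 4 genes of cohesion protection and sister separation 3 were higher, and the median ratio was 0.68. Sgol1 encodes a shugoshin, which shields centromeric cohesin until anaphase. Its level was 13.74, 13.67, 13.32 and 13.66 in GDF8 cells, against 12.59, 12.65, 12.79 and 12.50 in untreated cells (log2 intensity), without overlap. Its ratios were 1.15, 1.02, 0.54 and 1.15, and the fit gave 0.96 ± 0.11 (SE), 1.95-fold (adjusted p = 0.0126). The other shugoshin gene, Sgol2, had ratios of 0.83, 0.63, 0.49 and 1.00 and a fit of 0.74 ± 0.09 (SE), 1.67-fold (adjusted p = 0.0141). A second probe of Sgol2 gave 0.66 ± 0.12. Sgo2b is a close copy of Sgol2 in the mouse, and the share of its transcripts in this signal was not tested.

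Espl1 (separase) cuts cohesin at anaphase, and Pttg1 (securin) holds separase inactive until then. Espl1 had ratios of 0.31, 0.77, 0.78 and 0.61 and a fit of 0.62 ± 0.09 (SE), 1.53-fold (adjusted p = 0.0239). Pttg1 had ratios of 0.20, 0.03, 0.15 and -0.04 and a fit of 0.08 ± 0.09, with 4 of 8 channels saturated. Cenpj, a centriole protein despite its name, was at 0.05 ± 0.09, with a 95% interval of -0.17 to 0.28.

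**Figure D4:**
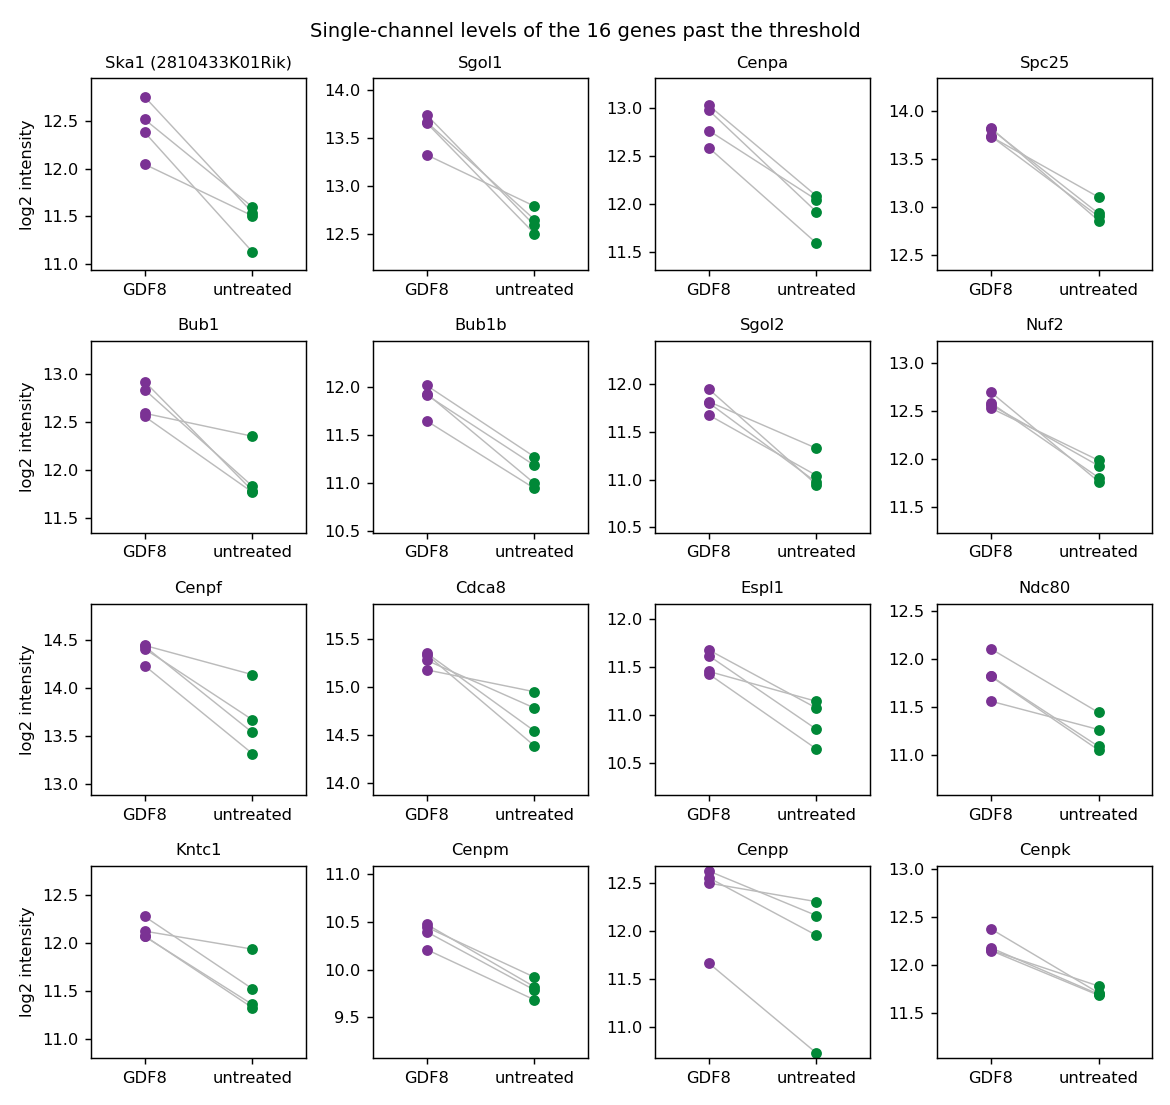
Single-channel levels (log2 intensity after normalisation within and between arrays, vertical axis, 2 units high in each panel) of the 16 higher genes in GDF8 cells (left in each panel) and untreated cells (right). Lines join both samples of an array. In each panel except Cenpp the groups do not overlap, but the panels were chosen by the test on these same data. Every GDF8 level was above every untreated level in 1.99% of all features.

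Some of the brightest probes reached the scanner's limit. The 7 genes whose probe was saturated in at least 1 channel had a median ratio of 0.11, and 1 of them was higher. The 33 genes saturated in no channel had a median ratio of 0.55, and 15 were higher. The part of saturation in this difference was not tested. With each gene represented by its brightest never saturated probe, 37 of the 40 genes remained and 17 were higher, against 1.09% of all features.

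Ratios differed between the dye orientations. Of the 16 higher genes, 10 had a larger mean ratio with GDF8 in Cy3 than with GDF8 in Cy5. For Ska1 those means were 1.23 in Cy3 and 0.73 in Cy5, and for Cdca8 0.36 in Cy3 and 0.88 in Cy5. All 16 were above 0 in both orientations. Without a dye term in the fit, 10 genes were higher, against 0.378% of all features.

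**Figure D5:**
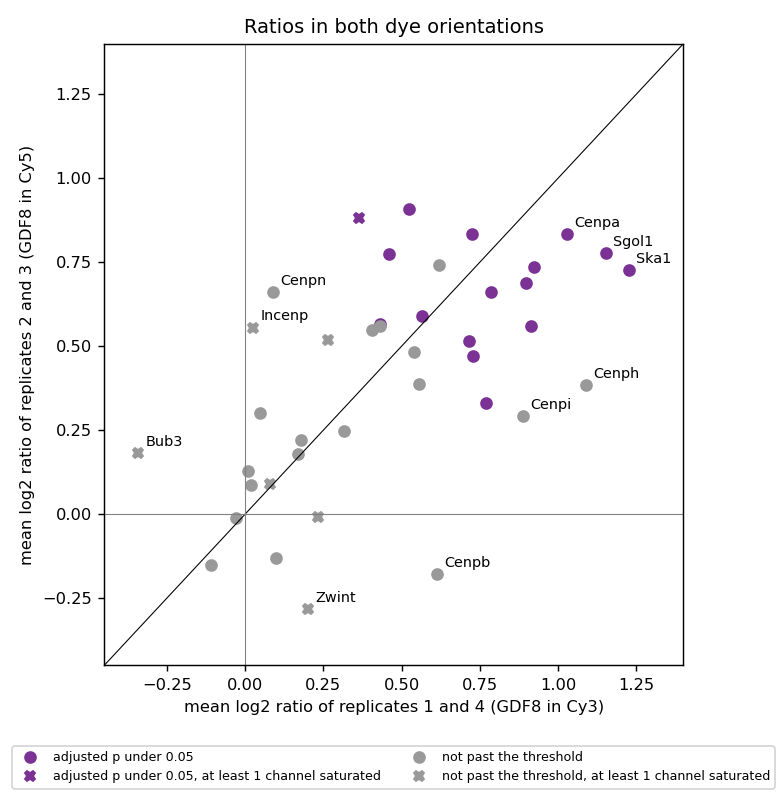
Mean log2 ratio of GDF8 over untreated on replicates 2 and 3 (GDF8 in Cy5, vertical axis) against that on replicates 1 and 4 (GDF8 in Cy3, horizontal axis) for the 40 genes; crosses mark genes saturated in at least 1 channel, and the diagonal marks equal means. The 16 higher genes lie in the upper right, while Cenpb, Zwint, Bub3, Cenpc1 and Birc5 change sign with the dye.

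Genes that work beside these 40 were grouped in 5 further lists. Of all features, 0.860% were higher and 2.30% lower in the same fit. Of 35 other kinetochore and centromere genes 8 were higher and 0 lower, with a median ratio of 0.27. They were led by Aurkb (above) and Knstrn, a kinetochore and spindle protein, at 0.70 ± 0.09 (adjusted p = 0.0162). Kif2c, a microtubule-depolymerising kinesin, was at 0.67 ± 0.10 (adjusted p = 0.0192) and Trip13, an ATPase that takes apart checkpoint complexes, at 0.54 ± 0.09 (adjusted p = 0.0347). Of 14 spindle microtubule regulators, which include Bub3, 7 were higher and 0 lower, and the median was 0.66. Those with the smallest p were Aspm at 0.77 ± 0.10, Ckap2l at 0.74 ± 0.10, Nusap1 at 0.77 ± 0.11 and Prc1 at 0.65 ± 0.10. With replicates 1 and 2 averaged and replicates 3 and 4 averaged, 1 of the other kinetochore genes and 0 of the spindle regulators passed limma's adjusted test. Of all features, 0.132% were higher by that test. At an unadjusted p under 0.05, 16 and 11 were higher in that fit, against 3.28% of all features.

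The remaining lists hold complexes that act on chromosome structure and sister separation. Their counts stand against the same shares of all features, 0.860% higher and 2.30% lower. Of 19 genes of the anaphase-promoting complex and its partners 1 was higher and 0 lower, with a median of 0.04. That gene was Ube2c, the ubiquitin-conjugating enzyme of the complex, at 0.71 ± 0.12 (adjusted p = 0.0307). The activator Cdc20 was at 0.52 ± 0.13, with 2 of 4 GDF8 and 0 of 4 untreated channels saturated, and did not pass. The inhibitor Fbxo5 at 0.58 ± 0.12 and Ube2s at 0.30 ± 0.10 did not pass. Many genes of this list were saturated in at least 1 channel, some of them in all 4 untreated channels. Each of the other further lists also held saturated genes. The part of saturation in these medians was not tested. Of 14 cohesin genes 1 was higher and 0 lower, with a median of 0.01: Cdca5 (sororin), which stabilises cohesin, at 0.78 ± 0.10 (adjusted p = 0.0144). Next by p were Esco2 at 0.69 ± 0.15, Esco1 at -0.27 ± 0.13 and Nipbl at 0.11 ± 0.09. Of 7 condensin genes measured 1 was higher and 0 lower, with a median of 0.33: Ncapg at 0.80 ± 0.11 (adjusted p = 0.018). Ncapd2, Smc2 and Ncapg2 were at 0.45 ± 0.13, 0.42 ± 0.13 and 0.33 ± 0.11. With replicates averaged in the same way, 0 of the anaphase-promoting complex, 1 of cohesin and 0 of condensin passed limma's adjusted test. At an unadjusted p under 0.05, 3, 2 and 4 were higher. The shares of all features were 0.132% and 3.28%. In the fit of all 4 arrays no gene of these 5 lists was lower at an unadjusted p under 0.05, while without replicate 1 there was 1, of cohesin. Without replicate 2, and likewise without replicate 4, 0 genes of these lists passed the adjusted limma test, while between 1 (condensin without replicate 2) and 20 (other kinetochore genes without replicate 4) were higher at an unadjusted p under 0.05. The share of all features at that threshold was 3.10% without replicate 2 and 4.53% without replicate 4. Without replicate 1, 3 other kinetochore genes and 3 spindle regulators passed, and 0 of the anaphase-promoting complex, against 0.545% of all features.

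Of other mitotic genes, Ccnb1 (cyclin B1) had ratios of 0.92, 0.97, 0.98 and 0.91 and a fit of 0.95 ± 0.09 (SE), 1.93-fold (adjusted p = 0.00829). Mki67, the Ki-67 proliferation marker, was at 0.34 ± 0.09 (adjusted p = 0.122) with 3 of 8 channels saturated.

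Markers of the labelled cell type were present. All 12 skeletal muscle markers were well above background in all 8 channels, and most were saturated. Ckm, the muscle creatine kinase, was lower with GDF8 at -0.93 ± 0.18 (SE), 1.9-fold (adjusted p = 0.0487), and the other 11 did not pass. Its part in the results above was not tested. Of markers of other cells, 2 of 6 adipocyte, 3 of 8 endothelial, blood and immune, and 3 of 6 neural and epithelial genes were tested and none passed. Pparg, Fabp4, Kdr, Cd68, Cd3e and Krt5 were well above background in all 8 channels. Pparg was bright, between 14.27 and 14.59 in GDF8 cells (log2 intensity). Pecam1, Ptprc, Adgre1, Lep, Snap25 and Syp were not well above background in any channel. Each array held 45018 spots, of which between 0.745% and 12.1% of non-control spots were saturated in GDF8 channels and between 4.11% and 11.1% in untreated channels.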

How the data were processed

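Images of array design 014868 were read by Agilent Feature Extraction 9.1.1.1, per the file headers. The deposited files hold an intensity for the spot, its background and its processed signal in each channel, a log10 ratio of red over green, and other columns that flag spots. The table of values deposited by the authors is in log2 ratios. Set against the scanner files, it matched the processed signals' log2 ratio, as GDF8 over untreated, within 0.001 for 100% of 40929 single-spot probes, and its columns were not centred (medians 0.14, -0.09, -0.11 and 0.09 for replicates 1 to 4).

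Signals were background-corrected by normexp (offset 50) and normalised by loess in limma 3.58.1 (R 4.3.3), with control spots at weight 0 and outlier spots left out. Probes well above background in every GDF8 channel or in every untreated channel were kept (26577 of 41174). The brightest probe stood for a gene, which gave 17444 features, and 13878 of these had a RefSeq gene name. RefSeq names (GRCm38.p6) matched 24375 probes by accession, 6301 by symbol and 2426 by synonym. Ratios were fitted with a GDF8 term and a dye term per probe, and the array is the block. The fit had 2 residual and 4.57 prior degrees of freedom. Exact sign permutation with 4 arrays has a smallest two-sided p of 0.125, so a gene's p rests on the variance limma shares across genes. Single-channel levels are log2 intensities after loess and Aquantile. All arrays lay on 1 slide, and their number limits the precision. In a test on simulated ratios for GDF8 over untreated with 17444 features, 92.5% of 67 genes changed 1.5-fold and 100% of 67 changed 2-fold were recovered, and 14 of 17244 unchanged features were called. The simulated noise was drawn independently for each array, whereas the arrays here did not vary independently. The simulation therefore cannot show how often the fit recovers or wrongly calls features in these data.

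The genes, lists, motifs and tests were chosen with earlier results of these data known. Each of the 40 genes may be named, and of each further list the 4 measured genes with the smallest p; Aurkb, Ccnb1 and Mki67 were named in any case.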

Additional observations from a re-analysis of the deposited data

Results flagged for a closer look

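The ratios of the 40 genes, and 11 medians (of 7 role groups, of all 40 genes, of those with and without saturated channels and of those not above 0 on every array), were searched for a single array that stood apart from the other 3 (gap to the nearest array, as a share of the whole range, above Dixon's critical value), a rule by which chance marks about 1 in 20 groups. Of 51 sets of 4 values searched, 2 met it. Kntc1, the Rod subunit of the RZZ complex, had ratios of 0.75, 0.75, 0.19 and 0.71 on replicates 1 to 4, with a gap share of 0.921 for replicate 3. Mis12, the scaffold between inner and outer kinetochore, had ratios of 0.11, 0.15, 0.11 and -0.09, with a gap share of 0.841 for replicate 4. Neither cause was tested.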

How the results depend on the processing

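Of 557 values of single genes under 14 alternatives, 457 kept their direction and side of the threshold, 85 kept their direction and no longer passed, 8 passed only there and 7 changed sign. The median ratio of the 40 genes stayed between 0.42 and 0.61, and 0 genes were lower in every alternative. Ska1 and Cenpa passed in all 13 alternatives fitted with limma, Sgol1 in 12, and Spc25 and Bub1b in 11. Nuf2 and Sgol2 passed in 10, Cdca8, Cenpf and Cenpm in 8, and Espl1 in 7. The least stable were Ndc80 with 5, Bub1 and Cenpk with 4, and Kntc1 and Cenpp with 3. The number of higher genes was 11 with Agilent's processed signals and with the authors' deposited log2 table, 14 with an offset of 10, 18 with median centring, 13 without a filter on dim probes and 17 with probes never saturated. The deposited table holds the ratios of Agilent's processed signals. These alternatives are thus not separate from each other, although the counts above include both. Of all features, 0.590% were higher with Agilent's signals or the deposited table, 0.814% with an offset of 10, 1.03% with median centring and 0.451% without a filter. The number was 10 without a dye term, 10 in an unpaired fit of single channels, 10 by the methods' t-test (p under 0.05 and over 1.6-fold, and 5 after Benjamini-Hochberg, against 24 or 0.138% of all features) and, in an alternative added after seeing the data, 5 with arrays 1 and 2 and arrays 3 and 4 averaged. Leaving out each array gave 2 to 13.

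All features counted 66, 58, 69 and 23 higher in these last 4 alternatives and 8 to 107 with an array left out; 265 were lower in the unpaired fit, 172 with arrays averaged and 76 to 322 with an array left out. Other kinetochore genes past the threshold numbered 5 without a filter, 3 without a dye term, 3 unpaired, 2 by the methods' t-test, 1 with arrays averaged and 0 to 9 with an array left out. Median centring gave 2 for the anaphase-promoting complex and 2 for cohesin, and the methods' t-test 2 for cohesin. With arrays averaged the anaphase-promoting complex, condensin and spindle regulators had 0. With an array left out the ranges were 0 to 2 for the anaphase-promoting complex, 0 to 2 for cohesin, 0 to 1 for condensin and 0 to 9 for spindle regulators. The sign changed for Cenpc1 with median centring (0.0068) and without replicate 3 or 4 (range over left-out arrays -0.23 to 0.20), for Zw10 without replicate 3 or 4 (-0.16 to 0.11), for Cenpj without replicate 1 (-0.012 to 0.12), and for Zwint with probes never saturated (0.14). Leaving out an array takes 1 of 2 residual degrees of freedom, and the causes of the other changes were not tested. The main fit is paired by array, since each ratio compares both samples of 1 array. Saturation bounds the brightest probes, and 3 genes had no probe free of it.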
